A study of Mus musculus with 7 samples.

Results

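The 10 regions of open chromatin that the submitters assigned to Adgrl2, of 5898 regions deposited in all, were examined in adipose tissue macrophages of mice on 3 diet courses. A region belonged here when its nearest gene in the deposited annotation was Adgrl2, in any of the 7 tables. The locus was selected on the log2 changes themselves, because regions of both directions had been seen there, and each table holds only regions that the authors chose by fold change and adjusted p between these same diet groups. All differences between diets at Adgrl2 are therefore given as descriptions, with no test.

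The assay was ATAC-seq, which reads out open chromatin through cutting and tagging by the transposase Tn5, and it was run on macrophages sorted from adipose tissue of adult male C57Bl/6J mice. HFD-RD mice (n = 2 libraries) were fed 60% lipid over 11 weeks (high-fat diet) and, to bring about weight loss, 10% lipid over the next 9 weeks (regular diet). HFD mice (n = 3 libraries) had the 11 weeks of high-fat feeding alone. RD-RD mice (n = 2 libraries) had regular diet throughout, over 20 weeks, so HFD mice spent 9 weeks less on their diets than the mice of the other two groups. The labels give no genotype other than the strain, and they do not say whether libraries came from separate or pooled mice, so the spread between libraries may be technical. Titles and diet labels assign each library to its group, whereas the source names name another diet for all 7 libraries; titles were followed, and every direction below depends on them.

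Adgrl2 encodes latrophilin 2, a member of the adhesion class of G protein-coupled receptors. These receptors carry a long extracellular part that is cut by autoproteolysis next to the membrane, and latrophilins bind teneurins and FLRT proteins on neighbouring cells. Latrophilin 2 is best known from synapse formation in neurons and is also found in endothelial cells. Assignment to the nearest gene does not show that a region acts on that gene, and no expression data were used here.

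The gene lies on the minus strand of mouse chromosome 3 in GRCm38, with its start at 148990555 and its far end at 148815583 in the deposited annotation. Regions are lettered A to J in chromosomal order, which runs from far downstream of the gene to far upstream, and letters are used below. Downstream, past the end of the gene, lay A (chr3:148201943-148202834), B (chr3:148343377-148344501) and C (chr3:148387198-148387998), at 613, 471 and 428 kb from the gene's end. Inside the gene lay D (chr3:148881407-148881928), E (chr3:148932795-148933765) and F (chr3:148934184-148934936), at 109, 57.8 and 56.4 kb from the gene start. Upstream lay G (chr3:149169861-149170869), H (chr3:149203209-149203983), I (chr3:149225588-149226036) and J (chr3:149338079-149339861), at 179, 213, 235 and 348 kb from the start. The whole set spanned 1.14 Mb, and 0 of the 10 regions covered the gene start.

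Adgrl2 was the only protein-coding gene of RefSeq (GRCm38.p6) in that span, beside 10 non-coding genes or pseudogenes, 8 of them for long non-coding RNAs. The 3 inside regions overlapped no RefSeq gene but Adgrl2. All 4 upstream regions overlapped long non-coding RNA genes, G that of Gm52619, H and I that of Gm30382, and J both Gm30382 and Gm5149. The 3 downstream regions overlapped no RefSeq gene; the nearest annotated gene to B was the long non-coding Gm29836, at 1.25 kb, and the nearest other coding gene to each was Ttll7, 1218 kb or more away. No region overlapped a RefSeq gene-start window (250 bases before to 50 after the start). Exon and intron boundaries were not used here, so inside regions are not placed further.

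The authors numbered their peaks along each chromosome, and the numbers from A to J run over 38 peaks. Of these, 10 were deposited, all assigned to Adgrl2, and 28 were not analysed here. The 10 are 26.3% of the peaks in the span, beside 7.94% over all peak numbers up to the highest deposited. The span starts and ends at deposited regions, which raises its share, and the locus was chosen with its number of regions known. The 28 others included 4 between C and D, over a gap of 493 kb, and 9 between F and G, over the 235 kb that hold the gene start. E and F were the closest neighbours, 418 bases apart; neither they nor B and C had another peak between them.

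Regions differed widely in strength. On average over the 7 libraries, J was the strongest, with 574 normalized counts per kb, at percentile 99.0 of all deposited regions. A followed with 412 and E with 339 normalized counts per kb. The weakest was I, with 116 normalized counts per kb. It held only 15 to 122 reads per library, against 399 to 2564 reads at J, so values at I carry the most counting error.

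Both directions were present when HFD-RD macrophages were compared with RD-RD macrophages, a comparison of mice that had lost weight with mice kept on regular diet. The 7 regions inside and upstream of Adgrl2 were more open and the 3 downstream regions less open in HFD-RD. The direction switched once along the chromosome, in the gap between C and D. The libraries of HFD-RD and RD-RD did not overlap at any of the 10 regions. Nearly all deposited regions share this, with 65.4% not overlapping in the higher direction and 32.7% in the lower.

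The upstream region J was the strongest region that was more open. It had 1302 and 1244 normalized counts in HFD-RD, 1158, 1158 and 1161 in HFD, and 567 and 575 in RD-RD. Both groups that had eaten the high-fat diet stood well above RD-RD, and libraries of 1 group lay close together. The log2 change at J was 1.16 ± 0.19 (SE) in HFD-RD against RD-RD.

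H and G had the largest changes upstream, within an SE of each other. H had 268 and 242 normalized counts in HFD-RD, 251, 213 and 331 in HFD, and 99.6 and 69.1 in RD-RD, a log2 change of 1.60 ± 0.26 (SE) in HFD-RD against RD-RD. HFD-RD libraries lay inside the range of the HFD libraries, and both groups stood apart from RD-RD. At G the counts were 429 and 349 in HFD-RD, 316, 274 and 409 in HFD, and 144 and 117 in RD-RD, with a log2 change of 1.57 ± 0.24 (SE). The weak region I had 80.2 and 48.1 normalized counts in HFD-RD, 55.1, 54.3 and 70.5 in HFD, and 18.7 and 37.4 in RD-RD. The HFD-RD libraries scattered more at I than at any other Adgrl2 region, with a coefficient of variation of 35.4%, and its log2 change was 1.20 ± 0.33 (SE).

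Inside the gene, F had 189.7 and 149 normalized counts in HFD-RD, 172, 170.3 and 217 in HFD, and 37.4 and 86.4 in RD-RD. The RD-RD libraries differed from each other at F more than at any other Adgrl2 region, with a coefficient of variation of 56%, and the log2 change was 1.55 ± 0.33 (SE) in HFD-RD against RD-RD. Its neighbour E, 418 bases away, was tighter, with 394 and 352 normalized counts in HFD-RD, 369, 390.0 and 429 in HFD, and 177 and 190.1 in RD-RD. The log2 change at E was 1.02 ± 0.20 (SE). D, deeper in the gene, had 146 and 167 normalized counts in HFD-RD, 169, 198 and 184 in HFD, and 62.3 and 69.1 in RD-RD, a log2 change of 1.24 ± 0.20 (SE). HFD-RD libraries at D lay below all HFD libraries but still far above RD-RD.

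Downstream, the 3 regions were less open in HFD-RD than in RD-RD by similar amounts, but HFD libraries took different places. A and B belong to the deposited set of 2689 regions, which reads as past the authors' limits in HFD-RD against RD-RD only. C belongs to the set of 2022 regions, which reads as past them in both comparisons with RD-RD. The place of HFD at C against A and B is thus partly set by selection. At A, the region farthest from the gene, counts were 215 and 211 in HFD-RD, 420.4, 386 and 439 in HFD, and 463 and 438 in RD-RD. HFD libraries overlapped RD-RD there, and HFD-RD stood apart below both. At B, counts were 137 and 143 in HFD-RD, 184, 186 and 209.8 in HFD, and 339 and 268 in RD-RD. The 3 groups did not overlap at B, with HFD in between. At C, the region nearest to the gene, counts were 76.6 and 102 in HFD-RD, 102, 107 and 88.5 in HFD, and 215 and 194 in RD-RD. HFD-RD and HFD overlapped at C, and both lay apart from RD-RD.

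**Figure D1:**
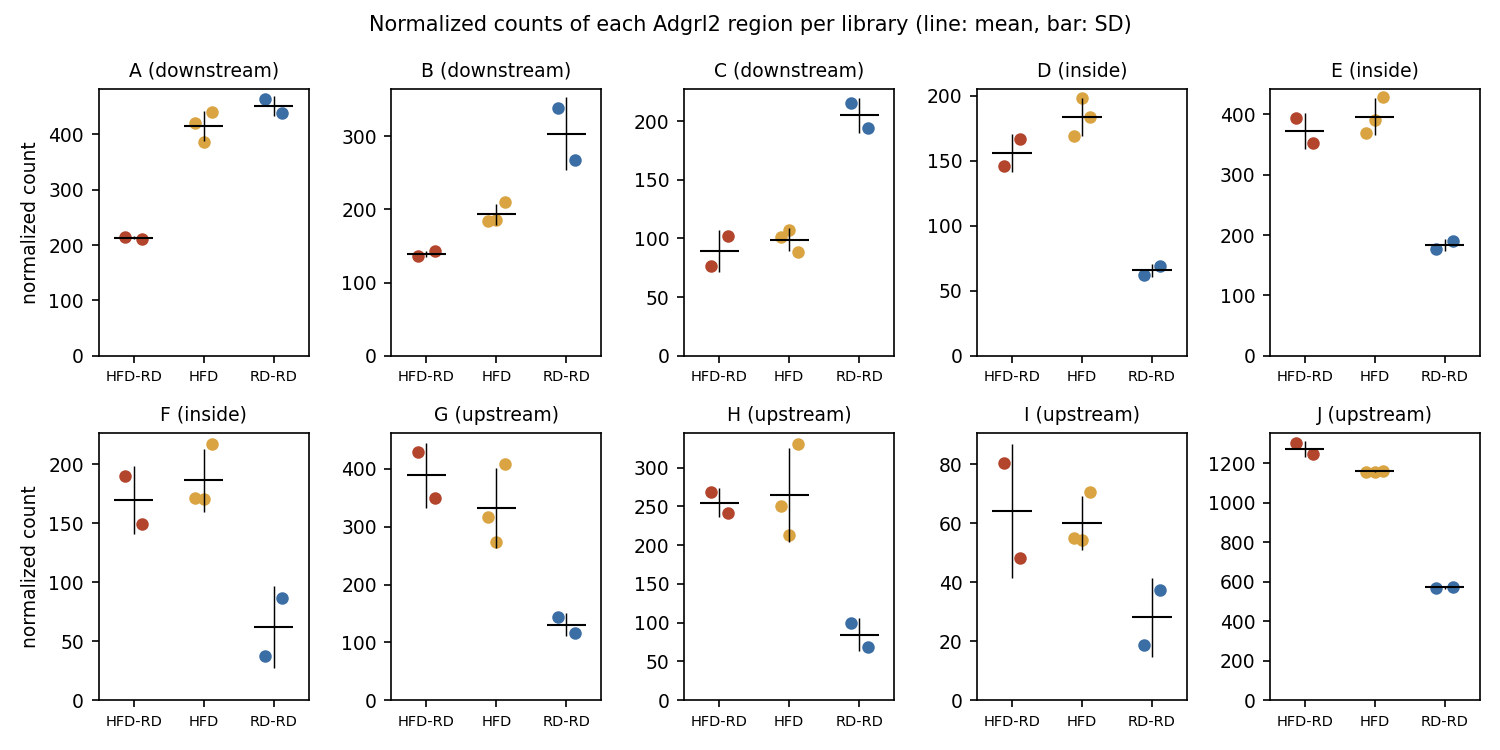
Normalized counts (y axes, each from 0) of the 10 Adgrl2 regions in every library, by diet group; points are libraries, horizontal lines group means and vertical bars the SD (n = 2 for HFD-RD, 3 for HFD and 2 for RD-RD). The 7 regions inside and upstream were higher in HFD-RD and HFD than in RD-RD, while A, B and C were lower in HFD-RD than in RD-RD.

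In numbers, HFD-RD against RD-RD gave log2 changes of 1.02 to 1.60 at the 7 inside and upstream regions and of -1.20 to -1.08 at the 3 downstream regions. Of the 10 regions, 7 were at least 1 higher on the log2 scale, beside 53.6% of all deposited regions, and 3 at least 1 lower, beside 29.4%. The locus was chosen on this comparison, so nothing is read from these counts. Libraries did not overlap in the higher direction at 65.4% of all deposited regions and in the lower direction at 32.7%. The median over the 10 regions was 1.18, beside 1.03 over all regions. These values come from a limma fit of log2(normalized count + 1) over all 5898 regions. Without RD-RD replicate 1, the count at least 1 higher was 4, because E, F and I came to 0.97, 0.95 and 0.72. Region F then moved to 0.95 and, without RD-RD replicate 2, to 2.14, so 1 library sets its size.

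The second comparison set HFD against RD-RD, that is high-fat against regular feeding, with a shorter time on diet. The 7 inside and upstream regions were also more open in HFD, by 1.02 to 1.68 on the log2 scale, with no overlap between libraries. All 7 belong to the deposited set of 2022 regions, which reads as past the authors' limits in both comparisons with RD-RD. That they pass 1 here therefore follows from selection, and nothing is read from it. The change was 1.68 ± 0.30 (SE) at F, 1.64 ± 0.24 (SE) at H and 1.47 ± 0.18 (SE) at D. Without RD-RD replicate 1 it was 1.09 at F and 1.90 at H, and without RD-RD replicate 2 it was 2.28 at F and 1.38 at H, so their order rests on 1 library. Region I was at 0.66 and 1.62 in the same settings. Over all deposited regions, 36.9% were at least 1 higher here, and 61% had libraries that did not overlap in that direction.

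Among the downstream regions, HFD against RD-RD gave -1.04 ± 0.20 (SE) at C, -0.64 ± 0.19 (SE) at B and -0.12 ± 0.18 (SE) at A. C alone was at least 1 lower, beside 12% of all deposited regions. That C passed 1 here and A and B did not follows from the sets they were deposited in, and nothing is read from it. Libraries did not overlap at B and C, beside 31.6% of all regions in that direction, and overlapped at A. C sits close to the limit, at -0.97 without RD-RD replicate 1 and at -0.97 without HFD replicate 3, so that 0 regions remained at least 1 lower. Both comparisons share the RD-RD libraries.

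The third comparison set HFD-RD against HFD, that is the return to regular diet with weight loss against high-fat feeding, at different times on diet. A showed the largest difference, -0.96 ± 0.18 (SE), with no overlap between libraries. B followed at -0.46 ± 0.19 (SE), also without overlap, and C was at -0.16 ± 0.20 (SE). The 7 inside and upstream regions differed by -0.23 to 0.23, with overlapping libraries at 5 of them. D was lower in all HFD-RD libraries, at -0.23 ± 0.18 (SE). J was higher in all of them, at 0.14 ± 0.17 (SE), but at -0.07 with equal totals per library.

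No Adgrl2 region was at least 1 higher or lower in HFD-RD against HFD, beside 3.31% and 3.65% of all deposited regions. The libraries did not overlap in the lower direction at 3 of the 10 regions, beside 31.6% of all, and in the higher direction at 1, beside 27.9%. Equal totals per library shifted the median of all regions by -0.21 in this comparison, and A then reached -1.17. Without HFD replicate 2, A also passed 1, at -1.01. A small difference does not show that the inside and upstream regions are alike in these groups.

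**Figure D2:**
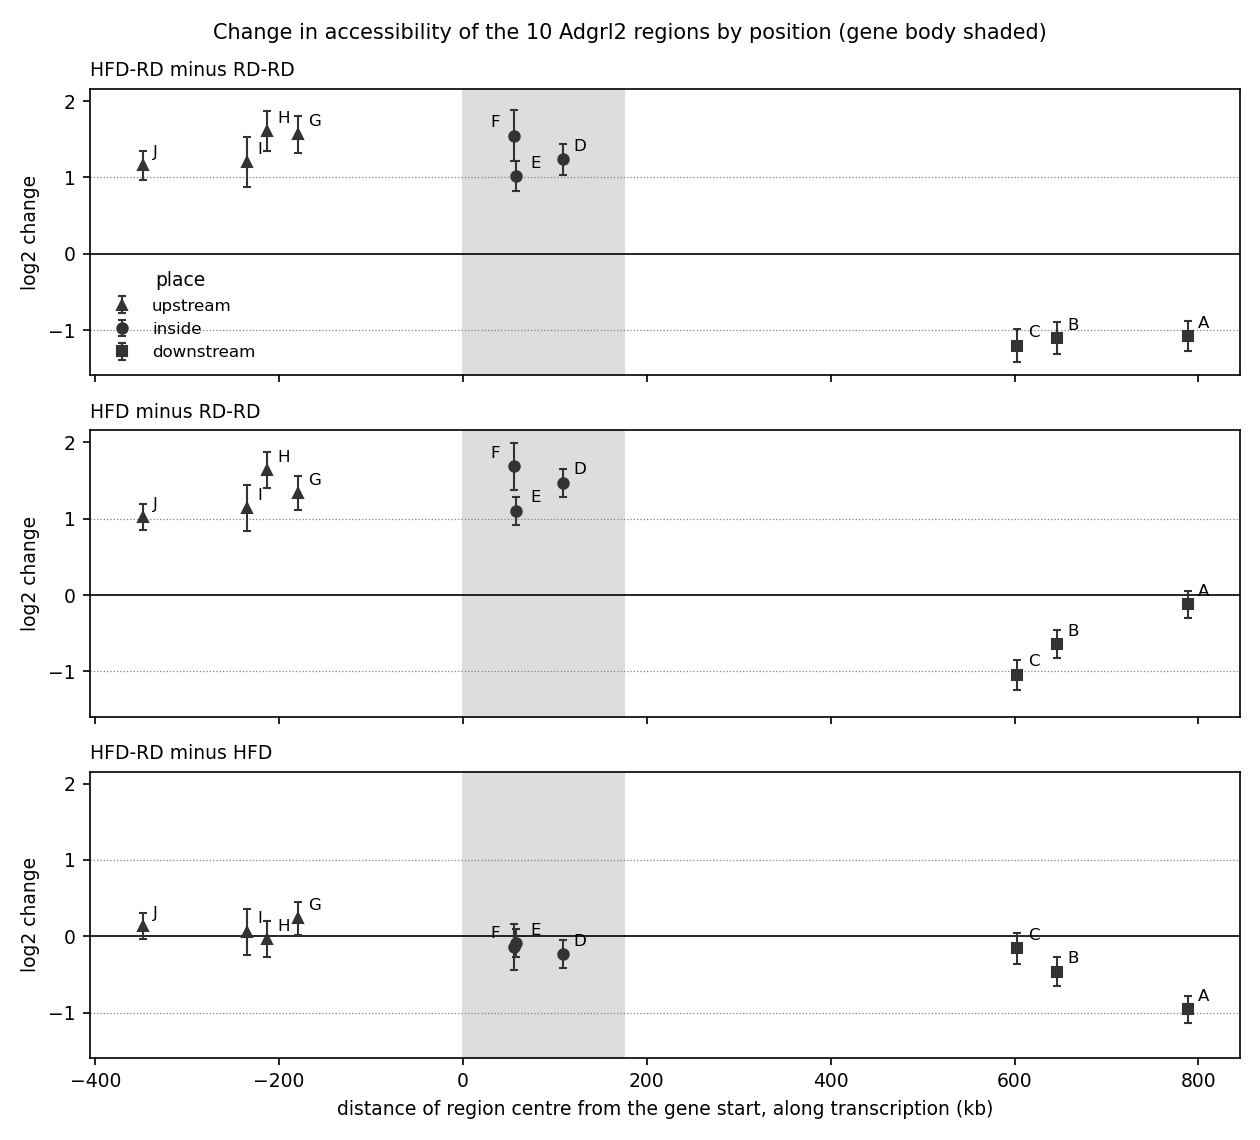
Log2 change (y axis, limma estimate with SE bars) of each Adgrl2 region against the distance of its centre from the gene start along transcription (x axis, kb; upstream is negative), for HFD-RD minus RD-RD, HFD minus RD-RD and HFD-RD minus HFD. Grey shading is the gene body and dotted lines mark changes of 1; D to J lie at 1.02 or above in both comparisons with RD-RD, while A lies at -1.08 for HFD-RD and at -0.12 for HFD.

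Summed within a library, both sides of the split can be compared without any scaling between libraries, because a size factor cancels in their ratio. The 7 inside and upstream regions held 6.55 and 5.60 times the normalized counts of the 3 downstream regions in HFD-RD, 3.53, 3.62 and 3.80 times in HFD, and 1.09 and 1.27 times in RD-RD. The 3 groups did not overlap. The sides of the ratio coincide, however, with the opposite directions for which the locus was picked. That HFD-RD exceeded RD-RD in this ratio therefore follows from the choice of locus, and nothing is read from it. The place of HFD is shaped by selection too. C to J read as deposited for passing the limits in both comparisons with RD-RD, and A and B in HFD-RD against RD-RD only. The same holds for the sums given next. The ratio averaged 6.08 ± 0.67 in HFD-RD (SD, n = 2), 3.65 ± 0.14 in HFD (SD, n = 3) and 1.18 ± 0.13 in RD-RD (SD, n = 2).

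The sums behind the ratio separate the groups differently. Inside and upstream regions summed to 2679.6 ± 183 normalized counts in HFD-RD (SD, n = 2), 2583 ± 190.0 in HFD (SD, n = 3) and 1125 ± 26.3 in RD-RD (SD, n = 2). HFD-RD and HFD overlapped in this sum. Downstream regions summed to 442 ± 19.0 in HFD-RD (SD, n = 2), 708 ± 29.4 in HFD (SD, n = 3) and 959 ± 83.2 in RD-RD (SD, n = 2), with no overlap between any of the groups. Taken singly, only B of the downstream regions kept all groups apart. Strong regions weigh most in these sums. A averaged 213 normalized counts in HFD-RD, 415 in HFD and 451 in RD-RD, and J averaged 1273 in HFD-RD. In bulk libraries, a smaller share of cells with the region open and less accessibility per cell cannot be told apart.

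**Figure D3:**
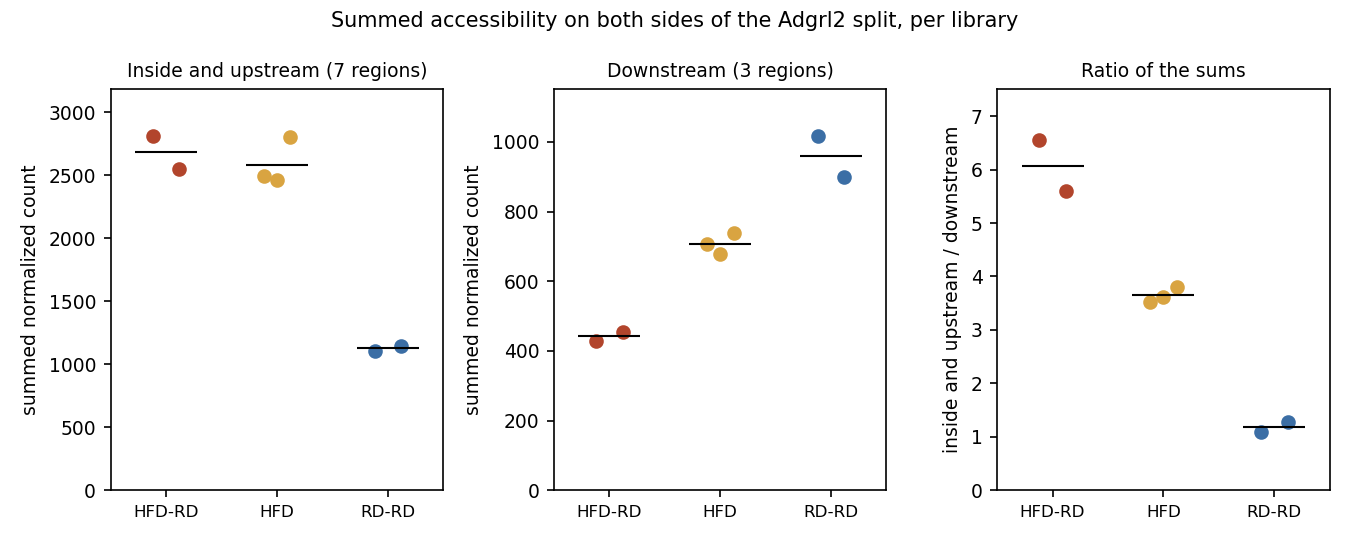
Summed normalized counts per library of the 7 inside and upstream regions (left) and of the 3 downstream regions (middle), and the ratio of both sums (right), by diet group; points are libraries, lines are group means and axes start at 0. The ratio was 5.60 or more in HFD-RD, 3.53 to 3.80 in HFD and at most 1.27 in RD-RD. The gap between HFD-RD and RD-RD follows from how the locus was picked.

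Regions on the same side of the split moved together over the 7 libraries. Pearson's r between pairs ran from 0.78 to 0.98 among the inside and upstream regions (21 pairs), with a median of 0.92. Among the downstream regions (3 pairs) it ran from 0.57 to 0.89. Pairs across the split (21 pairs) had r from -0.97 to -0.36. All pairs share the same libraries and depths, and regions were selected for differing between diets. The sides also coincide with the opposite directions for which the locus was picked. The signs of r are therefore largely set by that choice, and nothing is read from them.

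The authors' deposited table gave log2 fold changes between 1.02 and 1.64 in size for the 10 regions. By matching these to the group means, the 2689-region table that holds A and B reads as HFD-RD against RD-RD only. The 2022-region table that holds the other 8 reads as differing in both comparisons with RD-RD, with the deposited fold change being that of HFD against RD-RD. J lay closest to the authors' fold limit of 1, at 1.02 in the authors' deposited table, and I closest to their adjusted p limit of 0.05, with an adjusted p of 0.0231 there. Regions outside the limits were not analysed here.

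By the rule for the most similar profiles, the mean profile of the 7 higher regions over the 7 libraries was closest to a region upstream of 4930563H07Rik, with Pearson's r of 0.998. Next came regions inside Epg5 and Dtnbp1, each with r of 0.997. Epg5 takes part in autophagy and Dtnbp1 encodes dysbindin, a subunit of a complex in lysosome-related organelle formation. Profiles with r over 0.95 were common, at 18.7% of all deposited regions. The mean profile of the 3 downstream regions was closest to a region inside Dgkk, a diacylglycerol kinase gene, with r of 0.999, then to regions upstream of Mtmr2, a phosphoinositide phosphatase gene, and of 4930503F20Rik, each with r of 0.999. For that profile, 9.22% of regions had r over 0.95.

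Of 29 other genes of the adhesion receptor class, 9 had a deposited region, with 1 each. In HFD-RD against RD-RD, 6 of the 9 regions were at least 1 lower and 2 at least 1 higher on the log2 scale, beside 29.4% and 53.6% of all deposited regions. The lowest was inside Adgrv1, a very large receptor known from hearing, at -1.85 ± 0.21 (SE), with 181 ± 36.4 normalized counts in HFD-RD and 648 ± 5.90 in RD-RD (SD, n = 2 each). Adgrg2 followed at -1.47 ± 0.23 (SE), Adgrf5 at -1.36 ± 0.26 (SE), Adgra3 at -1.13 ± 0.20 (SE), Adgre5, the leukocyte receptor CD97, at -1.12 ± 0.22 (SE), and Celsr1 at -1.04 ± 0.22 (SE). The higher ones were Adgrg3 at 1.12 ± 0.19 (SE) and Adgrl4 at 1.02 ± 0.21 (SE). Adgrl4, an endothelial receptor related to the latrophilins, lies on the same chromosome, and its region (chr3:151445868-151446522) is inside the gene. In HFD against RD-RD, 4 of the 9 were at least 1 lower and 1 at least 1 higher, beside 12% and 36.9% of all; in HFD-RD against HFD, 0 were past 1 in either direction.

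Of 10 latrophilin ligand genes, only Tenm4, which encodes a teneurin, had a region. It was less open in HFD-RD and in HFD than in RD-RD, at -1.98 ± 0.27 (SE) and -1.58 ± 0.25 (SE). Of 29 genes for G proteins and effectors through which such receptors can signal, 4 had regions, 6 in all. All 6 had values above 0 in both comparisons with RD-RD, beside 66.4% of all deposited regions in HFD-RD against RD-RD. Of these, 5 were at least 1 higher in HFD-RD against RD-RD, beside 53.6% of all, with Gna12 at 1.39 ± 0.25 (SE), the 3 regions of Plcb4, a phospholipase C gene, at 1.12 to 1.15, and Gnaq at 1.06 ± 0.27 (SE). Adcy3, an adenylyl cyclase gene, was at 0.80 ± 0.24 (SE). In HFD against RD-RD 4 were at least 1 higher, beside 36.9% of all, with Plcb4 at 0.46 to 1.39, and in HFD-RD against HFD 0 were.

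Within 2 Mb of the Adgrl2 regions there were 7 deposited regions of 6 other genes. On the side of the gene's downstream end, 6 regions at Lpar3, a lysophosphatidic acid receptor gene, Gm10636, Uox, Dnase2b and Prkacb, a protein kinase A catalytic subunit gene, were higher in HFD-RD than in RD-RD, by 0.61 to 1.45. These lie beyond A, so among deposited regions the lower values at A, B and C had higher ones on both sides. On the upstream side, a region assigned to Mir3963 (chr3:150610479-150611109) was lower, at -1.25 ± 0.33 (SE). Of the 7, 3 were at least 1 higher and 1 at least 1 lower in HFD-RD against RD-RD, beside 53.6% and 29.4% of all deposited regions. In HFD against RD-RD, 5 of the 7 were at least 1 higher and 1, that of Mir3963, at least 1 lower, beside 36.9% and 12% of all.

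The check of the labelled cell type could not be made, since 0 of 11 macrophage marker genes had a deposited region. Of 10 endothelial marker genes, 6 had 9 regions, whose summed normalized counts were 1809 and 1844 in HFD-RD, 1701 to 1851 in HFD, and 1526 and 1569 in RD-RD; Tek, Tie1, Emcn and Cldn5 had none. In HFD-RD against RD-RD, 6 of these regions were at least 1 higher and 3 at least 1 lower, shares near the 53.6% and 29.4% of all deposited regions. Other sums moved with the diet groups too, but every region was deposited for differing between these same groups. Nothing about the share of any cell type is therefore read from these sums. Dendritic cell regions (3 of 6 genes) summed to 336 and 274 in HFD-RD, 331 to 371 in HFD, and 861 and 768 in RD-RD, but the members differed in direction, with Siglech at -1.70 and Cd209a at -1.82 and Xcr1 at 1.05 in HFD-RD against RD-RD. T and B cell regions (2 of 9 genes) summed to 731 and 789.7 in HFD-RD, 729 to 755 in HFD, and 369.9 and 415 in RD-RD. The single neutrophil region (1 of 5 genes) had 128 and 126 in HFD-RD, 159.9 to 175 in HFD, and 277 and 248 in RD-RD. The single fibroblast region (1 of 8 genes) had 69.3 and 52.8 in HFD-RD, 30.9 to 51.5 in HFD, and 31.1 and 13.0 in RD-RD. On the adipocyte list of 4 genes only Fabp4 had a region, and Adipoq, Plin1 and Cidec had none. The Fabp4 region had 622 and 557 in HFD-RD, 688 to 820.2 in HFD, and 309 and 369 in RD-RD. The part of other cell types in the Adgrl2 values was not tested.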

How the data were processed

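Values are signal in open-chromatin regions, deposited by the authors as normalized counts; the deposited base mean is their mean over the 7 libraries. In every library, 100% of values were whole multiples (tolerance 1e-05) of 1 step, that is read counts divided by a size factor of 0.548 to 2.21. Deposited beside them are log2 fold changes by the authors, standard errors, test statistics (a score) and, raw and adjusted, the p-value of each region. Per the submitters' processing notes, Picard, deepTools, MACS2 2.0.10, DESeq2 and GRCm38 were used, without stated roles; the aligner is not given in the sources used here. Reads within the 5898 regions numbered 889422 to 2807495 per library, with a median of 71 to 270 per region.

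limma 3.58.1 in R 4.3.3 was fitted to log2(normalized count + 1) over all regions with a mean of at least 10 (0 removed), 3 groups in 1 fit, and tested on simulated data; errors of log2 changes are its SE. Changes of 1 or more in size were counted, the authors' own limit. Members, lists and rules were chosen with earlier results of these data known. The rule named all Adgrl2 regions, the 3 genes with the most similar profile to each side, the 5 other genes with most regions in the less frequent direction, 3 gene lists, and regions within 2 Mb. There were 7 marker lists. Same-numbered libraries did not deviate together (correlations of -0.07 to 0.06). No genome was used, so no region sequence is shown.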

Additional observations from a re-analysis of the deposited data

How the results depend on the processing

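Every Adgrl2 change of at least 1 kept its sign under all alternatives, and of 420 alternative log2 changes 398 moved by less than 1 SD between libraries. The 398 include many values that could not move. Other filters on low values and a fit of only the compared groups leave each estimate as it was. So do leaving out a library of the group not compared and, in HFD-RD against RD-RD, the replicate block. Counts of at least 1 in size moved as follows. Leaving out 1 library gave 4 to 7 regions higher and 2 to 3 lower in HFD-RD against RD-RD, 6 to 7 higher and 0 to 1 lower in HFD against RD-RD, and 0 to 1 lower in HFD-RD against HFD. With a pseudocount of 10, 5 regions were higher in HFD-RD against RD-RD (E at 0.98 and I at 0.97 were not). In HFD against RD-RD, 6 were higher with that pseudocount (I at 0.92 was not). The region lower in HFD against RD-RD (C) gave a count of 0 with a pseudocount of 10, and also 0 with the replicate number as a block. The block moved no other count of Adgrl2 regions. With equal totals per library, 1 region (A) was lower in HFD-RD against HFD, and 5 were higher in HFD-RD against RD-RD (E at 0.83 and J at 0.96 were not); this scaling shifted the median of all regions by -0.21 and -0.19 in those comparisons. Over all regions at an adjusted p of 0.05 in HFD-RD against HFD, limma called 603 higher and 757 lower, but 361 and 1588 with equal totals (44.3% and 18.5% higher), 180 and 241 with the replicate block, and 33 and 119 without HFD-RD replicate 1. The causes were not tested. A count test and TMM scaling were not run, because the values were treated as normalized. Depth limits region I most.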

Other observations

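Few genes had regions past 1 on the log2 scale in both directions in HFD-RD against RD-RD. Of 115 genes with at least 5 deposited regions, 14 did, and of the 8 genes with at least 10 regions, Adgrl2 and H2afy3 did. The other 5 genes with most regions in the less frequent direction were Rreb1 (2 higher and 3 lower), Tshz1 (2 and 3), Akap7, Foxo3 and Kdr (2 and 2 each). In these 5 the direction switched 2 or 3 times along the chromosome, against 1 switch at Adgrl2, over 90.4 to 371 kb against 1138 kb. Rreb1, Tshz1 and Foxo3 encode transcription factors and Kdr a receptor for vascular endothelial growth factor. Adgrl2 was chosen for this pattern, so its place among these genes is a description.

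Of 69 deposited regions more than 400 kb from the gene they were assigned to, a limit chosen after the values were seen, 59.4% were at least 1 lower and 14.5% at least 1 higher in HFD-RD against RD-RD, beside 29.4% and 53.6% of all deposited regions. Regions A, B and C are among them; B nonetheless lies 1.25 kb from the long non-coding Gm29836.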
